A study of Homo sapiens with 21 samples.

Results

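SK-MEL-147 melanoma cells given UNC0642 were compared with the same cells given GSK-484, using 3 RNA sequencing libraries of each: 6 of the 21 libraries of the study. The members are the libraries labelled UNC0642 treatment and GSK-484 treatment. The pair was set with earlier results of these data known, GSK-484 because PADI4 is barely expressed and because untreated libraries differ in GC trend. SK-MEL-147 is an established human melanoma cell line, grown here in medium with serum, and RNA was selected for poly-A tails before sequencing. The other 15 libraries came from cells given TP-472, GSK-591, MS023 or JQ-1 and from untreated cells, 3 of each. No engineered allele is named for any group, and all groups are 1 cell line. The sources used here give no dose, exposure time or vehicle, so it is not known whether the compounds were given at matched strength. The replicates are called biological without a statement that they were separate cultures, so the p-values reflect spread that may be technical.

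UNC0642 is a small molecule that blocks EHMT1 and EHMT2, also called GLP and G9a. These enzymes work as a pair and put the mono- and dimethyl marks on lysine 9 of histone H3, a mark of silent genes in euchromatin. Proteins with chromodomains read the mark, the SETDB1 and SUV39H enzymes extend it, and the KDM3 and KDM4 enzymes remove it. GSK-484 blocks PADI4, an enzyme that turns arginine into citrulline in histones and other proteins and is best known from neutrophils. The question addressed is what UNC0642 changes relative to cells that were also given a compound, one whose target these cells barely express.

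The targets were transcribed as follows. Levels are CPM, the usual count scaled by library depth, here with TMM-adjusted totals, and group values are means ± SD over 3 libraries. EHMT1 was at 72.6, 77.5 and 82.4 CPM in UNC0642 cells, against 76.7, 75.8 and 74.8 CPM in GSK-484 cells, and the groups overlapped (log2 fold change 0.03, SE 0.049, edgeR adjusted p = 0.72). EHMT2 was at 86.0 ± 3.06 CPM in UNC0642 cells and 83.8 ± 5.48 CPM in GSK-484 cells (log2 fold change 0.04, SE 0.050, edgeR adjusted p = 0.679). An inhibitor acts on the enzyme and need not change its transcript, so these values do not check the treatment. PADI4 was at 0.177 ± 0.0402 CPM in UNC0642 cells and 0.113 ± 0.0552 CPM in GSK-484 cells, too few counts to be tested. PADI1 and PADI2 were also too low to test and PADI6 had 0 counts in all 6 libraries. PADI3, a deiminase of hair follicle and epidermis, was the only member of the family tested, at 2.099 ± 0.275 CPM in UNC0642 cells and 1.66 ± 0.0981 CPM in GSK-484 cells (edgeR adjusted p = 0.318).

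Genes of the melanocyte lineage were present in part in both groups. SOX10, the transcription factor of the melanocyte lineage, was at 414 to 418 CPM of the raw total in UNC0642 libraries and at 371 to 416 in GSK-484 libraries. The pigment genes TYR, PMEL, MLANA, DCT and TYRP1 were below 1 CPM in all 6, while AXL, a receptor kinase of dedifferentiated melanoma, was at 1831 to 1911 CPM with UNC0642 and 1877 to 1982 CPM with GSK-484. Of markers of other cell types, 2 of 8 for keratinocytes, 3 of 8 for fibroblasts, 1 of 7 for endothelium and 0 of 9 for leukocytes reached 1 CPM in all 6 libraries. Of the tested fibroblast and endothelial markers (5 and 7), edgeR and DESeq2 called 0 with the counts as deposited, with 1 in each list at an unadjusted edgeR p under 0.05. After removal of library trends with GC content, and with GC content and transcript length, these 2 markers were called higher with UNC0642. PDGFRB, a growth factor receptor of fibroblasts and pericytes, was at 4.67 ± 0.319 CPM with UNC0642 and 3.65 ± 0.225 CPM with GSK-484 (edgeR adjusted p = 0.0569 as deposited, 0.0311 and 0.0475 after removal). TIE1, a receptor of endothelium, was at 24.8 ± 1.47 CPM with UNC0642 and 22.02 ± 1.16 CPM with GSK-484 (edgeR adjusted p = 0.0984 as deposited, 0.0317 and 0.0232 after removal). The keratinocyte markers summed to 108 to 117 CPM in UNC0642 and 114 to 115 CPM in GSK-484 libraries, nearly all of it KRT15 and KRT10, with TP63 and KRT1 at 0. Expected counts per library summed to 33496035, 78776788 and 50998477 with UNC0642 and to 41160857, 36317986 and 36316241 with GSK-484, within a range of 20978182 to 78776788 over all 21.

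UNC0642 cells differed from GSK-484 cells by many small changes and few large ones. Of 15062 genes tested, 689 passed a Benjamini-Hochberg adjusted p under 0.05 in the edgeR quasi-likelihood test and are named called genes here. They were 4.57% of the genes tested: 460 were higher with UNC0642 (3.05%) and 229 were lower (1.52%). The median called gene differed 1.21-fold, 92 differed at least 1.5-fold and 29 at least 2-fold. Against a threshold of 1.5-fold, the glmTreat test of edgeR called 0 genes, with 120 at an unadjusted p under 0.05. The 3 libraries of each group did not overlap in all but 62 of the 689; over all genes tested, 11.2% were higher and 11.5% lower without overlap. The count depended on single libraries: it was 16 without UNC0642 replicate 2, 34 without UNC0642 replicate 3, 72 without GSK-484 replicate 1, 68 without GSK-484 replicate 3 and 1363 without GSK-484 replicate 2. It also depended on the other groups that share the estimate of spread, with 12 calls when the 2 groups were fitted alone and 386 without the JQ-1 libraries. Of the 76 called genes named here, 10 kept their call with the 2 groups fitted alone, and 15, 24, 31 and 28 kept it without UNC0642 replicate 2, UNC0642 replicate 3, GSK-484 replicate 1 and GSK-484 replicate 3.

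The direction of the calls went with transcript length. Among genes whose longest annotated transcript is over 8000 bases, 254 of 1250 were called higher with UNC0642 (20.3%) and 7 lower (0.56%). Among genes of at most 2000 bases, 10 of 2741 were called higher (0.365%) and 43 lower (1.57%). The share called higher grew with each class between these, 0.646% of 5576 genes at 2001 to 4000 bases, 1.81% of 3487 at 4001 to 6000 bases and 6.20% of 1485 at 6001 to 8000 bases. The share called lower had no such order, at 1.95%, 1.204% and 1.21% in the same classes.

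**Figure D1:**
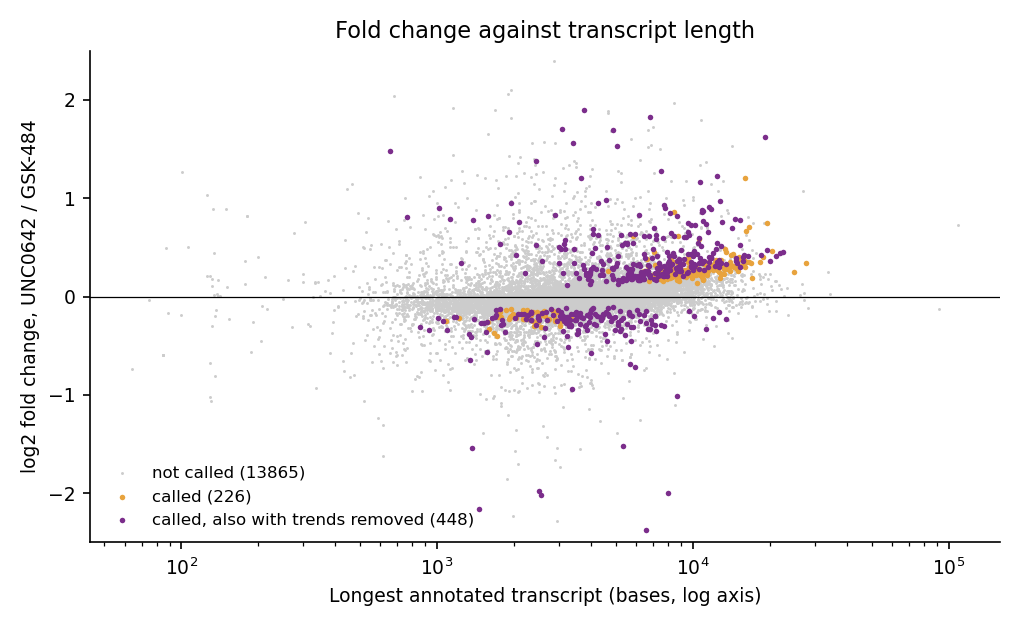
Log2 fold change of UNC0642 over GSK-484 for each of 14539 genes with a known transcript (vertical axis) against the length of its longest annotated transcript in bases (horizontal log axis). Grey points were not called, orange points were called, and purple points (448) were called in the same direction after the trends of each library with GC content and length were removed too. Above 8000 bases, called genes lie almost all above 0. 13 genes lie outside the plotted range of -2.5 to 2.5.

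The same trend differed between libraries of one group. Slopes were fitted to log2 CPM less each gene's mean over all libraries but those of JQ-1, so they are relative to that mean. On log2 transcript length the slope was 0.0193, 0.0683 and 0.0523 in UNC0642 replicates 1 to 3, against -0.0477, 0.0167 and 0.00557 in GSK-484 replicates 1 to 3. All 3 UNC0642 slopes lay above all 3 GSK-484 slopes, though UNC0642 replicate 1 lay close to GSK-484 replicate 2. By exact permutation, two-sided, p was 0.1, which is the lowest value possible for 3 against 3 libraries. Among the other 15 libraries, untreated replicate 1 had the steepest slope, 0.0824, and the 12 given other compounds ran from -0.0527 to 0.00298. The slope on GC content also differed, -0.0158, -0.0374 and -0.0130 log2 per 10 percentage points with UNC0642 and 0.0531, 0.0122 and -0.0308 with GSK-484 (exact permutation, two-sided, p = 0.3). Whether the length trend comes from the compound or from the preparation of the libraries was not tested.

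**Figure D2:**
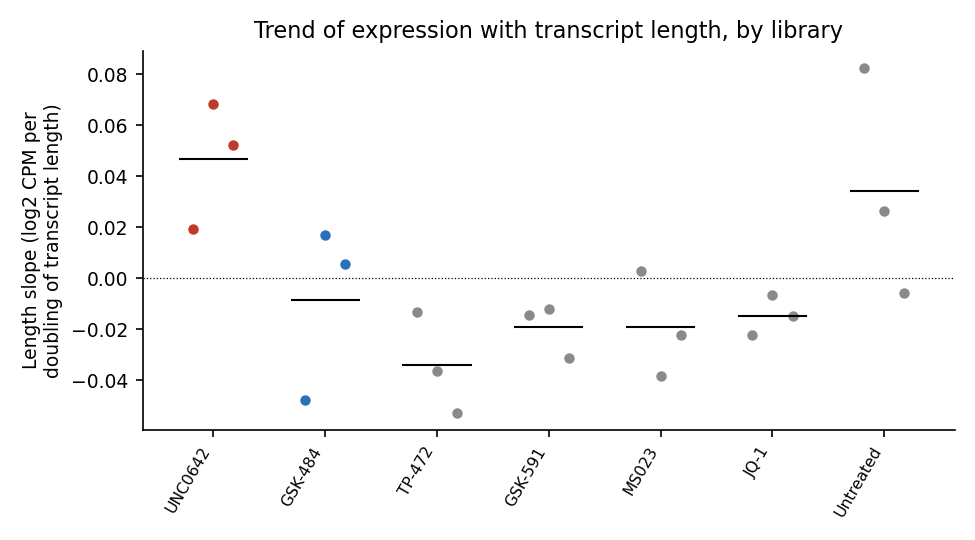
Slope on log2 transcript length for each of the 21 libraries, in log2 CPM per doubling of length (vertical axis), by group, with UNC0642 in red, GSK-484 in blue and the other groups in grey. Log2 CPM was taken less each gene's mean over all libraries but those of JQ-1, so the slopes are relative to that mean. Points are libraries in replicate order from left to right and lines are group means; the UNC0642 libraries lie at 0.0193 to 0.0683 and the GSK-484 libraries at -0.0477 to 0.0167.

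Each gene was therefore also tested after removal of each library's GC trend, and again after removal of both GC and length trends; the second was chosen after the data had been seen. With the GC trend removed, 1053 of 14539 genes were called (7.24%), 664 higher (4.57%) and 389 lower (2.68%). With both trends removed, 887 of 14539 were called (6.1%), 425 higher (2.92%) and 462 lower (3.18%), and 47.9% of the calls were higher with UNC0642, against 66.8% with the counts as deposited. In the class above 8000 bases, 113 genes were then higher and 147 lower. The counts as deposited and both of these fits called 448 genes alike (3.08% of 14539), 283 higher (1.95%) and 165 lower (1.13%).

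A small group of genes kept its call in every alternative fit of the UNC0642 and GSK-484 groups that tested it, up to 28 settings for each gene, leaving out the 1.5-fold threshold. These were SBSN, IGFN1, FCRLA, COL17A1, EHF, ZNF407 and ANGPTL2, all higher with UNC0642, and CXCL1, lower with UNC0642. They were drawn from the 76 called genes named here, and were singled out after their values had been seen.

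SBSN encodes suprabasin, a secreted protein of differentiating epidermis (chr19:35523367-35528351 on hg38, minus strand). It was at 9.67, 9.04 and 8.42 CPM in UNC0642 libraries, against 4.51, 4.61 and 4.84 CPM in GSK-484 libraries, groups that lie well apart. The log2 fold change was 0.96 (SE 0.097, edgeR adjusted p = 1.99e-05) with the counts as deposited and 1.04 with both trends removed. In the other groups SBSN averaged 4.58 CPM with TP-472, 5.40 with GSK-591, 5.12 with MS023 and 4.31 in untreated cells, so the UNC0642 libraries were the highest of the 21. UNC0642 was above each of those 4 groups in the same fit (log2 fold changes 0.74 to 1.07).

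COL17A1, the transmembrane collagen of hemidesmosomes (chr10:104031286-104085957, minus strand), was at 9.20, 8.49 and 9.77 CPM with UNC0642, against 5.78, 5.99 and 5.81 CPM with GSK-484. The GSK-484 libraries, with 674 counts in all, had an SD of 0.111 CPM and all lay below every UNC0642 library. The log2 fold change was 0.64 (SE of 0.078, edgeR adjusted p = 0.000133), and the untreated mean was 6.03 CPM. COL17A1 was the 1 called of 4 tested keratinocyte genes. KRT5, KRT1 and TP63, which define that cell type, were at or near 0, while the sum of all keratinocyte markers, given above, overlapped between the groups.

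EHF, an ETS-family transcription factor of epithelia (chr11:34621093-34661057, plus strand), was at 43.8, 46.3 and 42.5 CPM with UNC0642, against 29.1, 28.7 and 31.0 CPM with GSK-484. Every UNC0642 library was above every GSK-484 library, with a log2 fold change of 0.58 (SE 0.067, edgeR adjusted p = 7.06e-05). EHF averaged 31.7 CPM in untreated cells, 29.03 with GSK-591, 27.96 with MS023 and 20.4 with TP-472, and was near 0 with JQ-1 at 0.147 CPM. The 3 UNC0642 libraries were again the highest of the 21.

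IGFN1, an immunoglobulin and fibronectin domain protein known from skeletal muscle (chr1:201190825-201228952, plus strand), was at 25.4, 31.4 and 29.1 CPM with UNC0642, against 15.3, 17.0 and 14.2 CPM with GSK-484. The groups did not overlap and the log2 fold change was 0.89 (SE 0.093, edgeR adjusted p = 1.99e-05). Its longest transcript has 11810 bases, within the longest class; with both trends removed the log2 fold change was 0.75. TP-472 stood below GSK-484 for IGFN1 with 8.56 CPM and MS023 above it with 19.1 CPM.

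FCRLA, an Fc receptor-like protein that stays inside B cells (chr1:161706972-161714352, plus strand), was at 6.71, 6.52 and 6.97 CPM with UNC0642, against 3.63, 3.87 and 3.88 CPM with GSK-484. The log2 fold change was 0.83 (SE 0.12, edgeR adjusted p = 0.00173), with no overlap. The B cell gene MS4A1 was at or near 0 in all 6 libraries. Untreated cells had 3.99 CPM.

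ANGPTL2, a secreted angiopoietin-like protein (chr9:127087332-127122883, minus strand), was at 101, 106 and 106 CPM with UNC0642, against 79.1, 88.2 and 83.9 CPM with GSK-484 (log2 fold change 0.32, SE 0.042, edgeR adjusted p = 0.000352). It is the most abundant of the 7 higher genes and its groups did not overlap. It overlaps RALGPS1 on the opposite strand, and whether counting used strand is not known. ZNF407, a zinc finger protein gene (chr18:74597870-75065671, plus strand), was at 12.6, 13.4 and 13.6 CPM with UNC0642, against 9.73, 9.67 and 9.55 CPM with GSK-484 (log2 fold change 0.45, SE 0.070, edgeR adjusted p = 0.00199). For ZNF407 the untreated mean was 11.9 CPM, and UNC0642 was not called against untreated cells (log2 fold change 0.15, edgeR adjusted p = 0.12), while untreated cells were above GSK-484 cells (0.30, edgeR adjusted p = 0.0076; 19.1% of genes were called in that comparison).

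CXCL1, a chemokine first described as a melanoma growth factor (chr4:73869393-73871242, plus strand), was the 1 lower gene of the group. It was at 101, 97.3 and 101 CPM with UNC0642, against 132, 119 and 127 CPM with GSK-484, with no overlap. The log2 fold change was -0.34 (SE 0.051, edgeR adjusted p = 0.00173). Some of its expected counts were fractional, which marks reads shared with similar transcripts, so its level is less certain. UNC0642 was also below untreated cells, whose mean was 134 CPM (log2 fold change -0.42, edgeR adjusted p = 7.6e-05).

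**Figure D3:**
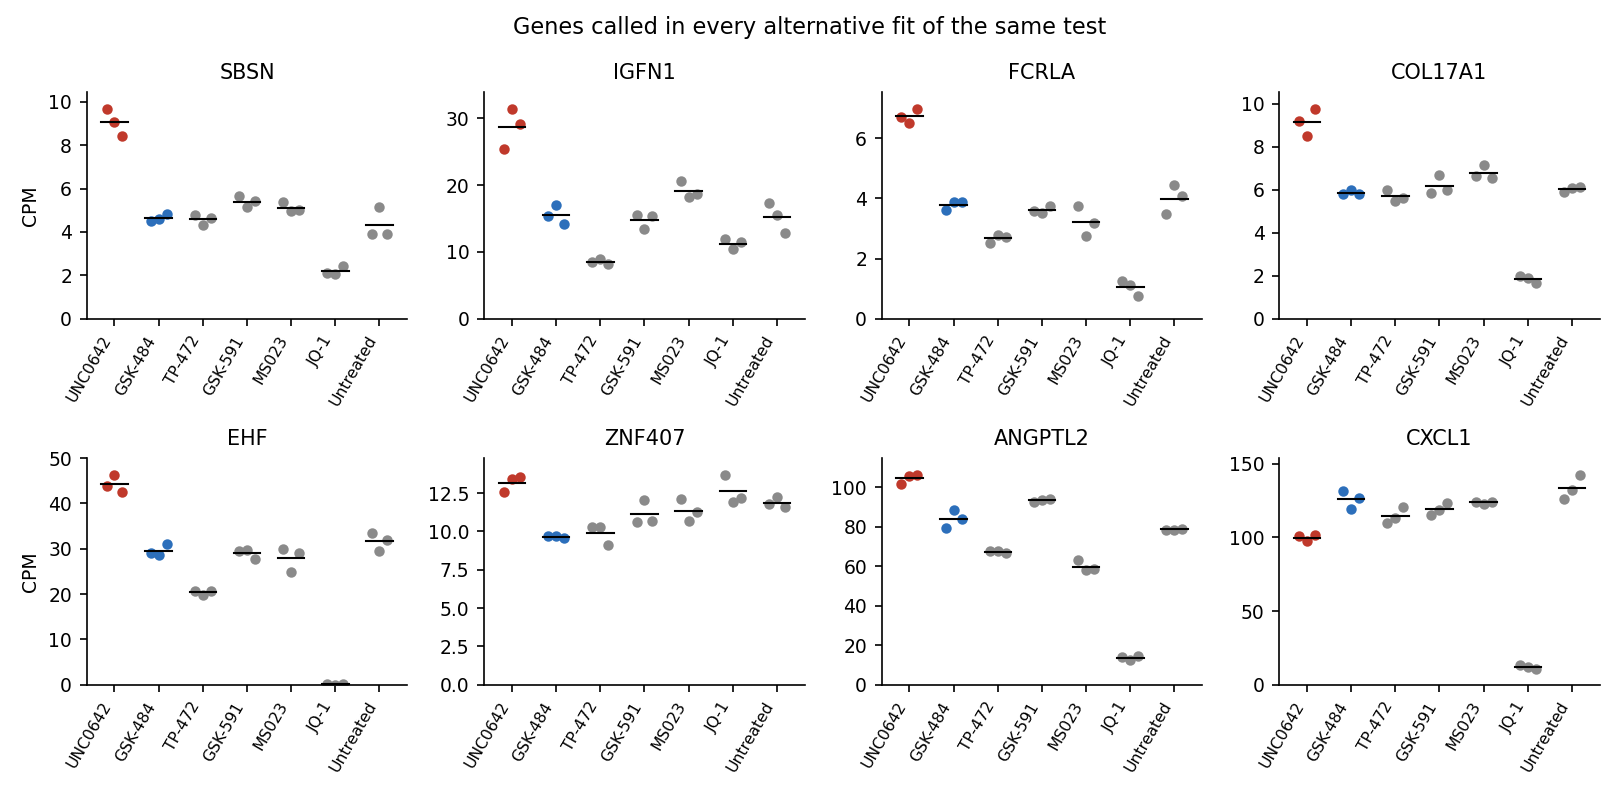
CPM of the 8 genes called in every alternative fit (vertical axis, from 0) in the 21 libraries by group, UNC0642 in red, GSK-484 in blue, other groups in grey; points are libraries and lines group means. In all 8 panels the UNC0642 and GSK-484 points are apart, and CXCL1 is the 1 gene whose UNC0642 points are lower, at 97.3 to 101 CPM against 119 to 132 CPM.

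Promoter sequences of some of these genes are shown, with that of ZNF667 from outside the group. The reason is that promoters rich in CpG dinucleotides and promoters poor in them are silenced in different ways. The sequences are the 250 bases before the gene's start in RefSeq (GRCh38.p14), 5′ to 3′ on the gene's own strand, with each CpG in capitals. Over 35116 RefSeq promoters the median was 11 CpGs in such a stretch. SBSN has 2, FCRLA 1 and COL17A1 1; 22.9% of promoters have as few as SBSN and 14.7% as few as FCRLA or COL17A1. ZNF667, a zinc finger gene that was lower with UNC0642, has 35, and 5.8% of promoters have as many. These were chosen from both ends: IGFN1 and ANGPTL2, also higher, have 4 and 12, and ZNF544 and CXCL1, also lower, have 26 and 18. ZNF667 and ZNF544 are not among the genes that kept every call. No stretch is given for EHF and ZNF407, which are, so the set is no survey of that group. Gene starts differ between RefSeq and GENCODE, so that by the GENCODE coordinates given here 250 bases of the FCRLA and ZNF667 stretches, 77 of the COL17A1 stretch and 40 of the SBSN stretch lie inside the gene.
SBSN (chr19:35528312-35528561, minus strand): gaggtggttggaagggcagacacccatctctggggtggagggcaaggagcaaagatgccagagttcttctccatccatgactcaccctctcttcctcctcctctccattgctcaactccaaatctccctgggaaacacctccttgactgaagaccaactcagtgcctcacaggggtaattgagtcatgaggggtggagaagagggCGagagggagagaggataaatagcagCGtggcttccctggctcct
FCRLA (chr1:161706979-161707228, plus strand): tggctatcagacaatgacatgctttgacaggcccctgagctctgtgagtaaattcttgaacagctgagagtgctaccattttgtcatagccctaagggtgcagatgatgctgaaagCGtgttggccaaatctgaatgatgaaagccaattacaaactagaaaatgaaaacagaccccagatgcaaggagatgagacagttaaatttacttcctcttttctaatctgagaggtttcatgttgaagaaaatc
COL17A1 (chr10:104085881-104086130, minus strand): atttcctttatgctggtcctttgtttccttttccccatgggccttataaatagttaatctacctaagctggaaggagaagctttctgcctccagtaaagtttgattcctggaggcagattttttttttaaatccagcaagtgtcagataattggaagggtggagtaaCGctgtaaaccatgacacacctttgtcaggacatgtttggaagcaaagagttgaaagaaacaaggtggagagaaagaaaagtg
ZNF667 (chr19:56477346-56477595, minus strand): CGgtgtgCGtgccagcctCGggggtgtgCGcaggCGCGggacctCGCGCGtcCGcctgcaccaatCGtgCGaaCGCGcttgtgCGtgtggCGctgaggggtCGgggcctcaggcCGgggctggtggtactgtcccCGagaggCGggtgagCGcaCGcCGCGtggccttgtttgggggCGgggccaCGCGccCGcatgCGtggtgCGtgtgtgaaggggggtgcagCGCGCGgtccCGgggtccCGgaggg

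The largest rises lay mostly in genes with long transcripts. The 12 largest under the naming rule (called, at least 3 CPM in the higher group, no overlap, whole counts) were KIAA0754, ZBED6, LNPEP, SBSN, MMP16, TMED8, IGFN1, ARL10, TTBK2, CDYL2, FCRLA and AGO2. ZBED6, a repressor derived from a transposase, sits inside the gene ZC3H11A on the same strand (chr1:203795714-203854999). It was at 32.6, 55.1 and 53.3 CPM with UNC0642, against 14.7, 29.3 and 17.3 CPM with GSK-484. The highest GSK-484 library came close to the lowest UNC0642 library, and the fold change was 2.33 (log2 1.22, SE 0.27, edgeR adjusted p = 0.0186). Untreated replicate 1, the library with the steepest length slope, stood at 47.3 CPM and UNC0642 was not called against untreated cells (log2 fold change 0.54, edgeR adjusted p = 0.15). Reads of ZBED6 and ZC3H11A may not be told apart.

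LNPEP, an aminopeptidase that moves with glucose transporters in response to insulin, was at 8.29, 13.0 and 11.7 CPM with UNC0642, against 4.07, 6.94 and 6.05 CPM with GSK-484 (log2 fold change 0.97, SE 0.21, edgeR adjusted p = 0.0169). MMP16, a membrane-bound matrix metalloproteinase, was at 15.8, 25.0 and 21.9 CPM with UNC0642, against 9.85, 14.4 and 9.53 CPM with GSK-484 (0.91, SE 0.21, edgeR adjusted p = 0.022). In both genes, and in those that follow, UNC0642 replicate 1 was the lowest of its group and GSK-484 replicate 2 the highest of its group. TTBK2, a kinase that starts the growth of primary cilia, was at 18.5 ± 2.81 CPM with UNC0642 and 10.3 ± 2.33 CPM with GSK-484 (log2 fold change 0.86, SE 0.18, edgeR adjusted p = 0.0147). AGO2, the slicer enzyme of RNA interference, was at 18.2 ± 3.01 CPM with UNC0642 and 10.7 ± 2.42 CPM with GSK-484 (0.79, SE 0.16, edgeR adjusted p = 0.0152). CDYL2, a chromodomain protein that binds methylated lysine 9 of histone H3, was at 7.51 ± 1.38 CPM with UNC0642 and 4.21 ± 1.33 CPM with GSK-484 (0.85, SE 0.21, edgeR adjusted p = 0.0302). Against untreated cells, UNC0642 was not called for LNPEP (0.51, edgeR adjusted p = 0.087) or MMP16 (0.32, edgeR adjusted p = 0.28). Untreated replicate 1 stood at 10.8 CPM for LNPEP and 22.7 CPM for MMP16. TTBK2, AGO2 and CDYL2 were higher than in untreated cells (0.50, 0.47 and 0.62, edgeR adjusted p = 0.0470, 0.0454 and 0.0451).

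The longest transcripts of LNPEP, MMP16, TTBK2 and AGO2 have 12752, 11558, 10905 and 14581 bases. With the GC and length trends removed they were still called, with log2 fold changes of 0.77, 0.72, 0.70 and 0.58. LNPEP, MMP16, TTBK2, AGO2 and CDYL2 kept their calls in 19 to 22 of the 28 settings, and all 5 lost them when UNC0642 replicate 2, UNC0642 replicate 3, GSK-484 replicate 1 or GSK-484 replicate 3 was left out.

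MALAT1, a long noncoding RNA held in nuclear speckles, showed the largest fall under the naming rule (chr11:65497688-65506516, plus strand). It was at 779, 595 and 594 CPM with UNC0642, against 1363, 922 and 1679 CPM with GSK-484. Every UNC0642 library was below every GSK-484 library, although the GSK-484 libraries differed widely among themselves. The fold change was 0.496 (log2 -1.01, SE 0.15, edgeR adjusted p = 0.00173), and -1.15 on the log2 scale with both trends removed. MALAT1 was also lower with UNC0642 than with TP-472, GSK-591, MS023 and in untreated cells (log2 fold changes -0.99 to -0.66), whose means ran from 1035 to 1304.5 CPM. Its longest annotated transcript has 8708 bases, a class in which most called genes were higher. Its call was lost with the 2 groups fitted alone (edgeR adjusted p = 0.0518).

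Other falls were smaller and several lay in zinc finger genes. KCNJ14, an inward rectifier potassium channel, was at 6.04 ± 0.513 CPM with UNC0642 and 8.94 ± 1.76 CPM with GSK-484 (log2 fold change -0.58, SE 0.12, edgeR adjusted p = 0.0165). ZSCAN18, a SCAN domain zinc finger gene, was at 12.8, 11.3 and 11.8 CPM with UNC0642, against 16.9, 15.04 and 16.9 CPM with GSK-484 (-0.45, SE 0.075, edgeR adjusted p = 0.00411). VIM-AS1, antisense to the vimentin gene, was at 7.84 ± 0.497 CPM with UNC0642 and 10.4 ± 0.990 CPM with GSK-484 (-0.41, SE 0.095, edgeR adjusted p = 0.0223), and without strand its reads cannot be told from those of VIM. Against untreated cells, KCNJ14 (-0.16, edgeR adjusted p = 0.42) and ZSCAN18 (-0.07, edgeR adjusted p = 0.54) were not called, while VIM-AS1 was lower (-0.30, edgeR adjusted p = 0.034). Untreated cells were below GSK-484 cells for KCNJ14 (-0.42) and ZSCAN18 (-0.38). Against TP-472, GSK-591 and MS023 together, KCNJ14 (-0.36) and ZSCAN18 (-0.38) were lower with UNC0642. VIM-AS1 was not called there (0.016, edgeR adjusted p = 0.90). The other 8 of the 12 largest falls were LINC00622, LOC728485, LOC100129940, TMEM59L, ACRC, LINC01355, ZNF345 and TMEM81, at log2 fold changes of -0.56 to -0.38.

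**Figure D4:**
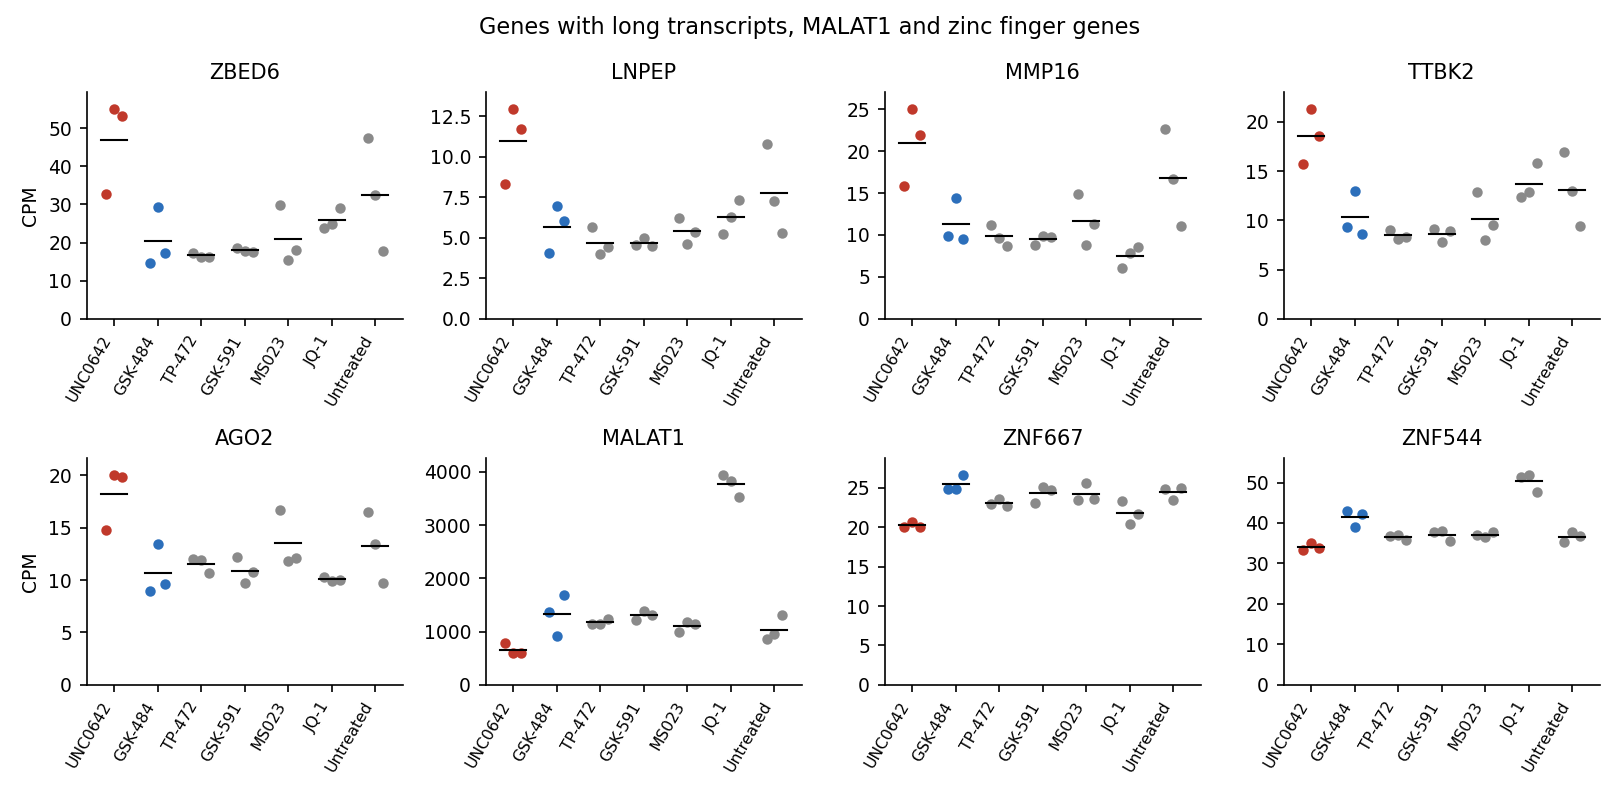
CPM in the 21 libraries (vertical axes, from 0) of 5 genes with long transcripts that rose with UNC0642, of MALAT1 and of 2 zinc finger genes that fell; UNC0642 in red, GSK-484 in blue, others in grey, points are libraries and lines group means. In the 5 long genes UNC0642 replicate 1 and GSK-484 replicate 2 approach each other, while the MALAT1 points of UNC0642 are all below 800 CPM.

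Among the named called genes, the largest falls lay in genes with fractional counts, which are uncertain. KIAA0408 was at 6.71, 1.65 and 0.872 CPM with UNC0642, against 13.7, 9.70 and 18.3 CPM with GSK-484 (log2 fold change -2.37 with an SE of 0.44, edgeR adjusted p = 0.00973), and it overlaps another gene on the same strand. PALM2-AKAP2, a readthrough of neighbouring genes, was at 66.5 ± 13.7 CPM with UNC0642 and 27.6 ± 10.9 CPM with GSK-484 (1.28, SE 0.35, edgeR adjusted p = 0.0413). DDI2 (1.17) and CDRT4 (-1.98) were of the same kind. The rises of PALM2-AKAP2 and DDI2 were below that of KIAA0754 (log2 fold change 1.36), which had whole counts. Of the 689 called genes, 156 (22.6%) had fractional counts in at least 1 of the 6 libraries, beside 25.0% of all genes tested.

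Genes that write, read and remove methylation of histone H3 lysine 9 were mostly not called. Of 26 tested writers and readers, 1 was higher (CDYL2), 1 was lower and 24 were not called; with the GC and length trends removed, 1 was higher and 3 lower. The median log2 fold change of the list was 0.0079, beside -0.014 over all genes tested. MPHOSPH8, a chromodomain protein of the HUSH silencing complex, was the lower one, at 39.4, 36.9 and 37.5 CPM with UNC0642, against 46.0, 38.9 and 45.7 CPM with GSK-484. Its groups overlapped through GSK-484 replicate 2 (log2 fold change -0.20, SE 0.058, edgeR adjusted p = 0.0471). SETDB1, the methyltransferase that acts with KRAB zinc finger proteins, was at 38.6 ± 0.784 CPM with UNC0642 and 39.3 ± 0.457 CPM with GSK-484. WIZ, a zinc finger partner of the EHMT enzymes, was at 45.8 ± 0.417 CPM with UNC0642 and 43.3 ± 5.06 CPM with GSK-484. None of 11 demethylase genes was called by edgeR with the counts as deposited, with 3 at an unadjusted p under 0.05, and DESeq2 called 1. JMJD1C, a demethylase of the KDM3 family, had an edgeR adjusted p of 0.0571 with the counts as deposited and was called higher with the GC trend removed (edgeR adjusted p = 0.0293) but not with both trends removed (edgeR adjusted p = 0.0772). It was at 128, 147 and 144 CPM with UNC0642, against 109, 127 and 123 CPM with GSK-484 (log2 fold change 0.23).

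In gene classes that lysine 9 methylation is known to silence in other cells, calls were near the 4.57% share over all genes, and a share near it is not a result about the class. Of 17 tested germline and cancer-testis genes, edgeR and DESeq2 each called 0, with 2 higher and 2 lower at an unadjusted edgeR p under 0.05, and the median log2 fold change was -0.06. STAG3, a meiotic cohesin subunit and the nearest to a call, was at 0.322, 0.200 and 0.178 CPM with UNC0642, against 0.0490, 0.0271 and 0.0268 CPM with GSK-484 (edgeR adjusted p = 0.066, fractional counts). Of 27 interferon-stimulated genes, edgeR called 0 with the counts as deposited and DESeq2 called 1, with 3 at an unadjusted edgeR p under 0.05 (median -0.03); IFI44 was nearest at 34.4 ± 1.95 CPM with UNC0642 and 38.5 ± 2.05 CPM with GSK-484 (edgeR adjusted p = 0.0608). IFI44 was called lower with the GC trend removed (edgeR adjusted p = 0.0343) and not with both trends removed (edgeR adjusted p = 0.0605). Of 21 imprinted genes, NAP1L5 alone was called with the counts as deposited, lower by 0.22 on the log2 scale, and it was not called with both trends removed (edgeR adjusted p = 0.0984). It kept its call in 4 of 28 settings. With both trends removed, 1 other imprinted gene was called lower.

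KRAB zinc finger genes of chromosome 19, whose clusters carry lysine 9 methylation and whose products recruit SETDB1 to repeats, were lower when called. Of 36 tested, 6 were lower, 0 higher and 30 not called, and 12 lower and 0 higher had an unadjusted p under 0.05 (DESeq2 called 6 lower and 0 higher). Over all genes tested, 1.52% were called lower and 10.6% were lower at an unadjusted p under 0.05. The list had a median log2 fold change of -0.18 beside -0.014 for all genes. The 6 were ZNF439, ZNF440, ZNF470, ZNF529, ZNF568 and ZNF829, and each was lower in all 3 fits; with both trends removed, 9 were lower and 0 higher. ZNF529 was at 32.0, 31.1 and 31.2 CPM with UNC0642, against 35.6, 36.5 and 39.3 CPM with GSK-484 (log2 fold change -0.24, SE 0.043, edgeR adjusted p = 0.00628). ZNF829 was at 10.7, 10.1 and 10.5 CPM with UNC0642, against 11.5, 12.5 and 15.7 CPM with GSK-484 (-0.34, SE 0.083, edgeR adjusted p = 0.0269). In both genes GSK-484 replicate 3 was the highest library. ZNF439, ZNF529 and ZNF829 had fractional counts, so their levels are less certain. ZNF829 overlaps ZNF345, itself among the largest falls, on the opposite strand. Without strand, reads of ZNF829 and ZNF345 may not be told apart.

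The summed level of the KRAB list was 298 to 301 CPM in UNC0642 libraries and 316 to 366 CPM in GSK-484 libraries. The count of 6 became 5 with total-count scaling, 4 with RLE scaling, 2 without GSK-484 replicate 1 and 0 without UNC0642 replicate 2, UNC0642 replicate 3 or GSK-484 replicate 3. With genes of fractional counts left out it was 1. Whether these genes share reads with each other was not tested. A wider look at all tested symbols beginning ZNF, ZFP, ZSCAN or ZKSCAN, chosen after values had been seen, counted 9 higher and 35 lower of 537, with 7 higher and 31 lower in all 3 fits. The shares over all genes were 3.05% called higher and 1.52% lower, and 1.95% and 1.13% in all 3 fits. ZNF667 was at 20.0, 20.7 and 20.1 CPM with UNC0642, against 24.9, 24.9 and 26.7 CPM with GSK-484 (log2 fold change -0.33 with an SE of 0.054, edgeR adjusted p = 0.00411), and UNC0642 was also below untreated cells (-0.27, edgeR adjusted p = 0.0028). ZNF544 was at 34.1 ± 0.882 CPM with UNC0642 and 41.4 ± 2.17 CPM with GSK-484 (-0.28, SE 0.046, edgeR adjusted p = 0.00411). For ZNF544 the untreated, TP-472, GSK-591 and MS023 means were 36.6 to 37.1 CPM, and GSK-484 stood above all of them.

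Extracellular matrix and integrin genes were higher when called. Of 43 tested, 5 were higher and 0 lower, 17 higher and 0 lower had an unadjusted p under 0.05, DESeq2 called 7 higher and 0 lower, and the median log2 fold change was 0.08. Over all genes tested, 3.05% were called higher and 11.7% were higher at an unadjusted p under 0.05. The share called higher rose with transcript length, to 20.3% above 8000 bases, and the list was not compared with genes of like length. With both trends removed, 5 of the 43 were higher and 0 lower, beside 2.92% of all genes called higher. COL12A1, a collagen bound to fibril surfaces, was at 231, 279 and 267 CPM with UNC0642, against 181, 216 and 194 CPM with GSK-484 (log2 fold change 0.39, SE 0.080, edgeR adjusted p = 0.0137). FN1, fibronectin, was at 144, 157 and 151 CPM with UNC0642, against 103, 135 and 123 CPM with GSK-484 (0.33, SE 0.074, edgeR adjusted p = 0.0206). ITGB3, the beta chain of the vitronectin receptor, was at 46.6 ± 2.16 CPM with UNC0642 and 38.6 ± 2.49 CPM with GSK-484 (0.28, SE 0.066). ITGA2, the collagen receptor chain, rose by 0.26, and LAMC1, a laminin chain, rose by 0.18 with the counts as deposited but was not called with both trends removed (0.09, edgeR adjusted p = 0.0728). The longest transcripts of COL12A1 and FN1 have 11723 and 9171 bases, and the count of 5 became 0 when UNC0642 replicate 2, UNC0642 replicate 3, GSK-484 replicate 1 or GSK-484 replicate 3 was left out, and 8 without UNC0642 replicate 1.

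Genes of neural crest and undifferentiated melanoma changed in both directions, 4 higher and 3 lower of 25 tested, and all 7 kept their call in all 3 fits. The shares over all genes were 3.05% called higher, 1.52% called lower and 3.08% called in all 3 fits. NT5E, the ectonucleotidase CD73 that makes adenosine, was at 255, 259 and 262 CPM with UNC0642, against 217, 228 and 229 CPM with GSK-484 (log2 fold change 0.21 with an SE of 0.030, edgeR adjusted p = 0.00173), and it was called in 27 of 28 settings. EGFR and TNC, tenascin C, rose by 0.43 and 0.21 with overlapping groups, and FN1 is the fourth. WNT5A, a ligand of noncanonical WNT signalling, was at 83.0 ± 2.89 CPM with UNC0642 and 93.7 ± 2.39 CPM with GSK-484 (-0.17, SE 0.041, edgeR adjusted p = 0.0262). SNAI2, a transcription factor of neural crest migration, fell by 0.19 on the log2 scale. MITF, the master regulator of melanocytes, was at 12.6 ± 0.186 CPM with UNC0642 and 10.4 ± 0.986 CPM with GSK-484 (0.29, SE 0.065, edgeR adjusted p = 0.0209), the 1 called of 14 melanocyte genes. MITF averaged 12.8 CPM in untreated cells, and UNC0642 was not called against them (-0.020, edgeR adjusted p = 0.87).

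**Figure D5:**
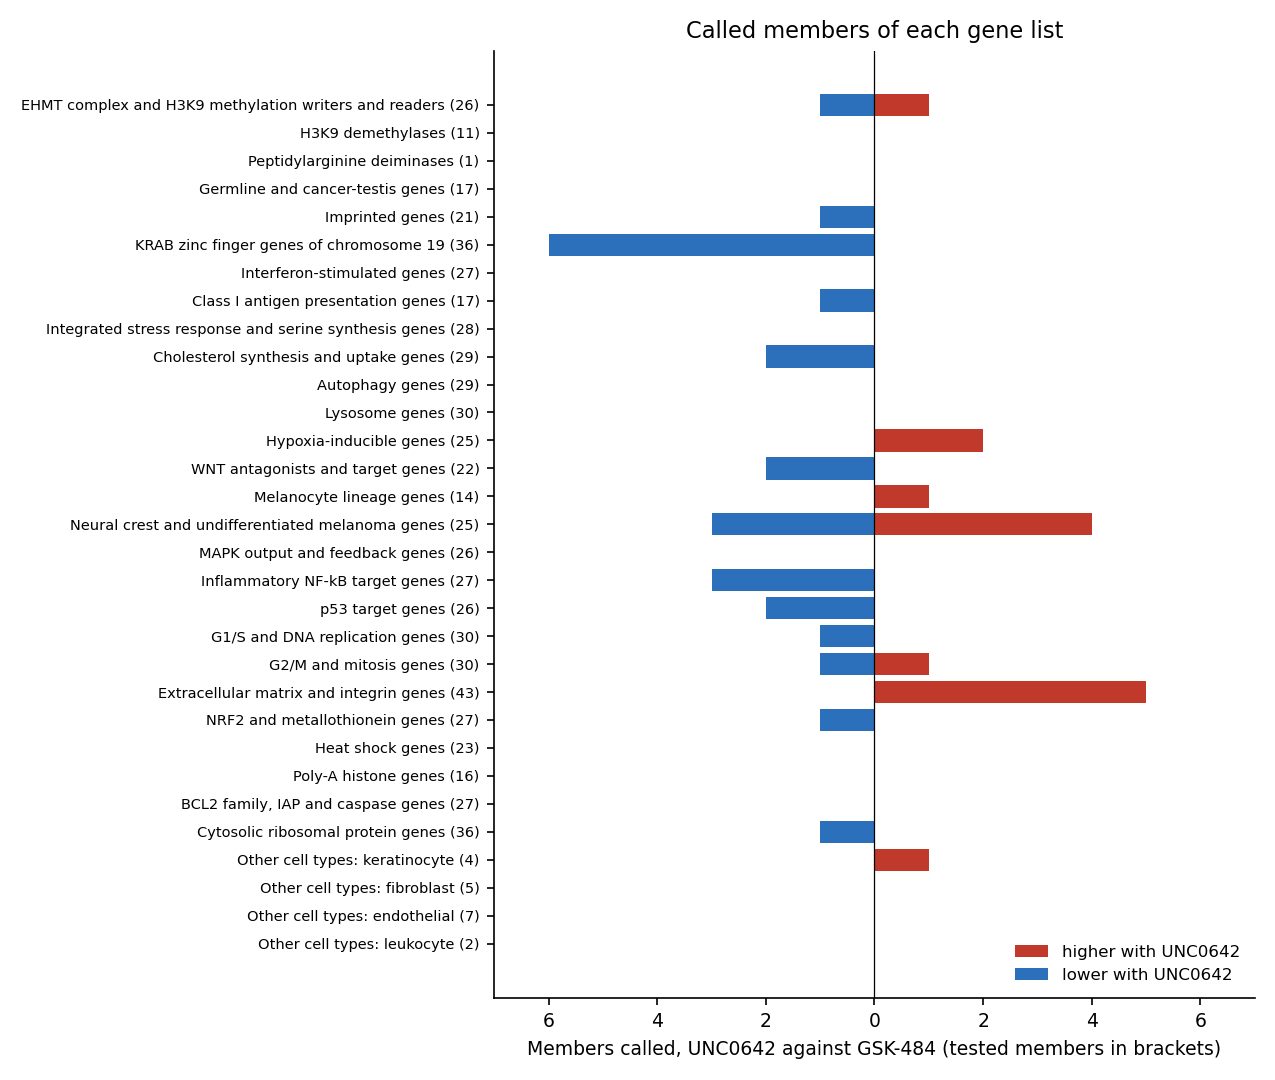
Members called per gene list (horizontal axis, counts, higher with UNC0642 to the right in red and lower to the left in blue), with the number tested in brackets. The longest bars are the 6 lower KRAB zinc finger genes and the 5 higher matrix and integrin genes.

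NF-kB targets were lower when called, 3 of 27 with 0 higher, beside 1.52% called lower over all genes tested. At an unadjusted edgeR p under 0.05, 10 were lower and 1 higher, where 10.6% of all genes were lower. DESeq2 called 6 lower and 0 higher, and the list median was -0.11. With the GC trend removed 7 were lower and 0 higher, where 2.68% of all genes were called lower. Beside CXCL1 these were CXCL8, the neutrophil chemokine interleukin 8, at 467 ± 9.73 CPM with UNC0642 and 513 ± 25.5 CPM with GSK-484 (edgeR adjusted p = 0.0499), and CSF3, a granulocyte growth factor, at 4.66 ± 0.486 CPM with UNC0642 and 6.01 ± 0.572 CPM with GSK-484 (edgeR adjusted p = 0.0496). Both lie at the edge of the threshold, CSF3 was not called with both trends removed (edgeR adjusted p = 0.0969), and with RLE or total-count scaling CXCL1 is the 1 left of the 3. Leaving out UNC0642 replicate 2, UNC0642 replicate 3, GSK-484 replicate 1 or GSK-484 replicate 3 left 1 lower NF-kB target, 2 were lower without UNC0642 replicate 1, and 6 were lower and 1 higher without GSK-484 replicate 2. Of 22 WNT genes, DKK1, a secreted WNT antagonist, was lower at 42.8 ± 1.51 CPM with UNC0642 and 50.6 ± 3.55 CPM with GSK-484 (log2 fold change -0.24, SE 0.053), beside WNT5A. Of 25 hypoxia genes, NDRG1 and the glycolytic enzyme HK2 were higher, by 0.16 and 0.18, where 3.05% of all genes tested were called higher. NDRG1, a stress-induced growth regulator, was at 233, 235 and 236 CPM with UNC0642, against 211, 218 and 202 CPM with GSK-484 (edgeR adjusted p = 0.0147).

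In growth and stress lists, 0 to 2 genes of each were called with the counts as deposited, near the 4.57% share over all genes. Of 30 mitosis genes, MKI67, the proliferation antigen, was higher at 476 ± 43.2 CPM with UNC0642 and 373 ± 66.3 CPM with GSK-484 with overlapping groups and a transcript of 12678 bases, while CCNB1, cyclin B1, was lower by 0.13 on the log2 scale and was not called with both trends removed (edgeR adjusted p = 0.0648). With both trends removed, 4 mitosis genes were higher and 0 lower. Of 30 replication genes, CLSPN alone was called (-0.25). Of 26 p53 targets, PLK2 and MDM2 were lower (-0.13 and -0.15), and of 29 cholesterol genes, MSMO1 and SREBF1 were lower (-0.19 and -0.18). One gene each was lower among NRF2 (NQO1), class I antigen presentation (PSMB10) and ribosomal protein genes (RPL7A). NQO1 was not called with both trends removed (edgeR adjusted p = 0.0543), and PSMB10 was not called with the GC trend (edgeR adjusted p = 0.0883) or both trends removed (edgeR adjusted p = 0.244); they kept their calls in 10 and 6 of 28 settings. In 7 lists edgeR called 0 genes with the counts as deposited, and the number at an unadjusted p under 0.05 was 13 of 28 for the integrated stress response (12 of them lower), 6 of 29 for autophagy, 6 of 30 for lysosome, 5 of 26 for MAPK output, 5 of 23 for heat shock, 2 of 16 for poly-A histone and 9 of 27 for BCL2 and caspase genes. Over all genes tested that share was 22.3%. With the GC trend removed, edgeR called 1 lower heat shock, 1 higher histone and 2 lower BCL2 and caspase genes. With both trends removed it called 1 higher and 1 lower heat shock gene, 1 higher and 1 lower histone gene, 2 lower BCL2 and caspase genes, 1 lower lysosome gene and 1 lower MAPK gene, and 0 in the other 2 lists. DESeq2 called 1 gene each in the stress response, heat shock and histone lists and 0 in the other 4.

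Further genes called in all 3 fits with the smallest adjusted p, a ranking added after values had been seen, are given next, of 24 added by it. KIF5A, a neuronal kinesin motor, was at 20.1, 22.6 and 24.2 CPM with UNC0642, against 14.9, 16.8 and 14.3 CPM with GSK-484 (log2 fold change 0.55, SE 0.097, edgeR adjusted p = 0.00586). KCNQ3, a subunit of the neuronal M-current channel, was at 5.63 ± 0.229 CPM with UNC0642 and 3.58 ± 0.352 CPM with GSK-484 (0.65, SE 0.11, edgeR adjusted p = 0.00517). CLSTN2, a synaptic calsyntenin, was at 4.13 ± 0.362 CPM with UNC0642 and 2.54 ± 0.122 CPM with GSK-484 (0.70, SE 0.13, edgeR adjusted p = 0.00702). None of the 3 overlapped between groups. KCNU1, a potassium channel of sperm, had the largest ratio of this set at a low level, 1.03 ± 0.151 CPM with UNC0642 and 0.281 ± 0.0774 CPM with GSK-484 (1.89, SE 0.33, edgeR adjusted p = 0.00517).

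LCP1, the actin bundling protein plastin 2, was at 74.8, 78.97 and 77.6 CPM with UNC0642, against 62.7, 65.3 and 66.4 CPM with GSK-484 (log2 fold change 0.25, SE 0.038, edgeR adjusted p = 0.00173). CD163L1, a scavenger receptor, was at 18.4 ± 0.882 CPM with UNC0642 and 13.0 ± 1.91 CPM with GSK-484 (0.50, SE 0.087). FBN1, fibrillin 1, was at 57.6 ± 3.73 CPM with UNC0642 and 43.7 ± 3.74 CPM with GSK-484 (0.40, SE 0.067). On the lower side, C22orf23 was at 40.4 ± 1.83 CPM with UNC0642 and 49.2 ± 0.732 CPM with GSK-484 (-0.29, SE 0.043, edgeR adjusted p = 0.00173), and it overlaps POLR2F on the opposite strand.

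GSK-484 cells were not the same as the other treated cells. Against TP-472, GSK-591 and MS023 together, 340 of 15062 genes were called in GSK-484 cells (2.26%), 147 higher (0.976%) and 193 lower (1.28%); with total-count scaling the count was 107, with 69.2% higher instead of 43.2%, and it was 12 without GSK-484 replicate 3. UNC0642 cells against the same 3 groups gave 4577 calls (30.4%). Against GSK-484 the count was 689, but that reference is 1 group of 3 libraries, not 3 such groups. Singly, UNC0642 differed by 3290 genes from TP-472 (21.8%), 3275 from GSK-591 (21.7%), 4120 from MS023 (27.4%), 11009 from JQ-1 (73.1%) and 2448 from untreated cells (16.3%). These comparisons share the UNC0642 libraries, so their calls are not independent. They use the counts as deposited, with no trend removed. Median length slopes were -0.0362 with TP-472, -0.0144 with GSK-591 and -0.0223 with MS023, against 0.00557 with GSK-484 and 0.0523 with UNC0642. How many of these calls go with the length trend was not tested.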

How the data were processed

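Poly-A selected RNA of SK-MEL-147 cells was sequenced on an Illumina instrument, per the series' design text. The authors deposited expected counts per gene made with RSEM 1.2.15 and Bowtie2 2.1.0 on build hg38, per the submitters' processing notes; the sources used here name no gene annotation, strand setting or filter. The counts were not scaled between libraries.

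Expected counts were rounded, filtered with filterByExpr (minimum count 10, minimum total 15) and given TMM factors. One edgeR 4.0.16 model held all 21 libraries, with group as its only term, and 15062 of 26475 genes were tested by the two-sided quasi-likelihood test with Benjamini-Hochberg adjustment, called under 0.05. The common coefficient of variation between replicates was 5.09%. CPM values use TMM-adjusted totals, except cell type markers, which use raw totals. Fold changes are those of the edgeR fit with a prior count of 0.125. Counting error comes on top of the common coefficient of variation and is larger at lower CPM. Over the 3 GSK-484 libraries together, FCRLA had 436 counts, SBSN 535 and COL17A1 674. Ribosomal RNA genes took 7.23 to 10.6% of counts in the 6 libraries.

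GC content and the longest transcript came from GENCODE 29 (GRCh38) and were known for 14539 of the tested genes (96.5%). Trends were removed as edgeR offsets from a loess fit for each library (prior count 2, span 0.3, degree 1, 4 iterations). The values fitted were log2 CPM less each gene's mean over all libraries in the fit. Alternatives were DESeq2 1.42.0, scaling by RLE or by total count, the low-count filter dropped or set to 50, the 2 groups fitted alone, without the JQ-1 libraries, a replicate block, thinning to the smallest total, a 1.5-fold threshold, GC trend removal, other comparison groups, leaving out genes with fractional counts or ribosomal RNA genes, and leaving out each library. Removal of the length trend, alone or with the GC trend, was added after seeing the data. Other versions were R 4.3.3, Python 3.11.15, numpy 2.4.6, pandas 2.3.3 and matplotlib 3.10.9.

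The libraries compared and the gene lists were chosen with earlier results of these data known. The 31 lists held 752 genes, of which 751 were found in the table and 671 were tested. The naming rule took the targets, the 12 largest called rises and falls reaching 3 CPM in the higher group, with no overlap and whole counts, up to 4 called members of each list, and of genes with fractional counts the 2 largest changes each way; 24 genes called in all 3 fits were added after their values were seen. Replicates of each group differed by more than sampling noise (chi-square per degree of freedom 6.34 to 20.0), so none was counted as a duplicate. Some list members enter the counts but are not reported here by name. The fits were tested on simulated data.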

Additional observations from a re-analysis of the deposited data

How the results depend on the processing

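Of the 689 genes called between UNC0642 and GSK-484, the count moved by over 1.5 times when the 2 groups were fitted alone (12 of 14504 tested, 2574 at an unadjusted p under 0.05), without the JQ-1 libraries (386), at a 1.5-fold threshold (0) and with the GC trend removed (1053). Leaving out 1 library gave 16 to 1363 calls, and with the GC and length trends removed too it gave 1052, 147 and 215 without UNC0642 replicates 1, 2 and 3 and 367, 1588 and 372 without GSK-484 replicates 1, 2 and 3. With TP-472, GSK-591, GSK-484 and MS023 together as the reference the count was 4145, and with untreated cells as the reference it was 2448. No trend was removed in either. The remaining settings gave 460 (thinned) to 1028 (DESeq2) calls, and a minimum count of 50 gave 799 with 80.2% higher. The count for GSK-484 against TP-472, GSK-591 and MS023 was 340, and it was 711 with DESeq2, 107 with total-count scaling and 12 to 617 with 1 GSK-484 library left out. Where the cause of a moved count is not the smaller number of libraries, the cause was not tested.

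Against untreated cells, 3 named genes turned sign: PSMB10 (0.055), SREBF1 (0.19, edgeR adjusted p = 0.0141) and MITF (-0.020). Deviations of same-numbered UNC0642 and GSK-484 libraries correlated at 0.063, 0.14 and -0.038. Pairs with different numbers were not compared, so these values cannot decide whether replicate numbers pair the samples. In both groups the length slope was lowest in replicate 1 and highest in replicate 2. With the replicate block, 471 genes were called between UNC0642 and GSK-484, 904 with the GC trend removed as well and 811 with both trends removed; the GSK-484 count against the 3 other groups was 269.

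Limits are these. With 3 libraries a group and no stated separate cultures, the calls rest on a spread estimated over all 21 libraries. Doses and times are not known, strand use in counting is not known, and fractional counts mark 25.0% of the tested genes, whose reads may be shared. Depth differed between libraries, and thinning all to the smallest total left 460 calls.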
